A study of Mus musculus with 10 samples.

Results

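Macrophages are tissue-resident phagocytes that take up debris, trim matrix and vessels and signal to their neighbours, and pancreatic islets hold a standing population of them between endocrine cells and capillaries. Their survival depends on the receptor encoded by Csf1r, their identity on transcription factors such as PU.1 and MAF, and their sensing on Fc receptors, complement and scavenger receptors. Monocytes, neutrophils and dendritic cells share part of this programme and arrive from the blood, and B cells share some of it too.

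The macrophage and myeloid genes described here are 39 named genes, found by matching the gene symbol of each probe set in the array's annotation. All 39 were found, with 71 probe sets, among 18193 genes with an unambiguous symbol. The genes were arranged by role into 16 of resident macrophages, 3 of monocytes, 2 of neutrophils, 4 of dendritic cells, 10 shared by leukocytes, 3 cytokines and the lysozyme gene Lyz1. They were measured in pancreatic islets of 5 Men1 heterozygous mice and 5 wildtype mice, all female and 5 weeks old, with the strain labelled C57 on a 129 background. Men1 encodes menin, a tumour suppressor. The labels do not say how the allele was made, and no treatment is named for either group. About 100 islets of each mouse were pooled into 1 RNA sample and hybridised to 1 array, so the replicates are separate mice.

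Values are log2 expression values per probe set. A gene is given by its brightest probe set, which was compared if it lay above 4 on at least 5 of the 10 arrays. A difference is the heterozygous mean minus the wildtype mean of these values, and levels are mean ± SD with n = 5 per genotype. Each array measures a mixture of cells, so fewer macrophages and less RNA per macrophage cannot be told apart.

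The brightest of 3 Men1 probe sets read 6.82, 6.09, 6.56, 6.44 and 6.16 in heterozygous islets, against 7.21, 7.18, 6.83, 6.96 and 6.25 in wildtype islets (difference -0.47, SE 0.20, exact permutation p = 0.0635, unadjusted, limma adjusted p = 0.9999). The genotypes overlapped, and the labels do not place the probe sets relative to the mutant allele, so these values do not check the genotypes. Islet hormone genes gave strong signals, with Gcg at 16.31 in heterozygous and 16.40 in wildtype islets and Iapp at 16.29 and 16.26. Acinar cell transcripts also gave strong signals, with Cela3b at 17.05 in heterozygous and 17.08 in wildtype islets and Clps at 17.01 in both. The mean of 12 acinar markers was 16.14 in heterozygous and 16.21 in wildtype islets, above that of 13 endocrine markers (13.37 and 13.39). Whether the macrophage transcripts came from islets or from acinar tissue was not tested. Heterozygous replicates 2 and 5 stood apart in B cell genes. Ighm, the heavy chain of immunoglobulin M, read 8.21 and 7.36 there, against 3.86 to 4.05 in the other 3 heterozygous mice and 3.97 to 6.01 in wildtype mice. Ms4a1, which encodes CD20, read 6.95 and 6.62 in these mice, against 3.80 to 4.30 in the other heterozygous mice and 3.60 to 5.31 in wildtype mice. Differences of members and of their scores that rest on these 2 mice are therefore given with and without them.

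Of the 39 genes, 25 passed the filter on dim values and 14 did not. The 14 include several defining myeloid genes. Spi1, which encodes PU.1, lay between 2.55 and 2.70 over all 10 mice. Cd68, a lysosomal glycoprotein of macrophages, lay between 2.66 and 3.24, and Tyrobp, a signalling adaptor of myeloid receptors, between 2.36 and 3.73. The label of the group is therefore borne out by part of its markers only: the genes that read clearly were Csf1r, C1qa, C1qb, Apoe, Ctss, Laptm5 and Lyz2, while others of the same cells stayed near background.

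PU.1 binds purine-rich sites with a GGAA core, and sequence upstream of the transcription start is shown for members whose values are described in detail. Promoter windows from RefSeq (GRCm38.p6), 250 bases before to 50 after a start, matched 29 of the 39 genes in 34 windows. The letters AGGAAGT, on either strand, occurred in 11 of these windows (32.4%, 10 genes), and in 9.35% of all 32851 windows. The longer form GAGGAAGT, which contains the shorter one, occurred in 4 (11.8%), those of C1qc, Ctss, Pf4 and S100a8, and in 3.20% of all windows. A match describes the letters and does not show binding. The stretches below run 5′ to 3′ on the strand of the gene, and capitals mark AGGAAGT or its reverse complement. Mrc1 and Pf4 are shown because their values differed most between the genotypes, and C1qb as a gene that differed little. Ptprc is shown as a gene highest in heterozygous replicates 2 and 5, and Lyz1 and Lyz2 to compare near-identical genes.

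Mrc1 (chr2:14229176-14229235, plus strand): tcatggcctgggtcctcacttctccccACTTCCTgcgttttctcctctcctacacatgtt

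Pf4 (chr5:90772398-90772434, plus strand): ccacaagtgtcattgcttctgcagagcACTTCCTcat

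C1qb (chr4:136886221-136886280, minus strand): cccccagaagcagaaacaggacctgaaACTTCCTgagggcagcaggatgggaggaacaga

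Ptprc (chr1:138175386-138175445, minus strand): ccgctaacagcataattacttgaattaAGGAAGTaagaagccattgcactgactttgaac

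Lyz1 (chr10:117292936-117292995, minus strand): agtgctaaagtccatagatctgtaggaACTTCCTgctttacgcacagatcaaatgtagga

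Lyz2 (chr10:117282340-117282399, minus strand): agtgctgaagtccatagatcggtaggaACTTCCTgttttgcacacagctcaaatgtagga

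In Pf4 the motif began 10 bases before the annotated start, in Mrc1 211 bases and in C1qb 53 bases before it. In Lyz1 and Lyz2 it began 100 bases before the start in both. The Lyz1 and Lyz2 stretches differed at 6 of 60 positions, and their whole windows were identical at 87.6% of aligned positions.

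The main comparison asked whether macrophage and other myeloid transcripts differ in islets of heterozygous mice. None passed the test across all probe sets. With limma, 0 of 18567 probe sets (0%) and 0 of the 34 member probe sets compared reached an adjusted p of 0.05, and a plain test per probe set also called 0. Before adjustment, 760 probe sets (4.09%) had a limma p under 0.05, and 679 had one in the plain test. Among the 25 members compared, 4 were under 0.05 and lower in heterozygous islets (16%), where 1.52% of all probe sets were. None was under 0.05 and higher, where 2.57% of all probe sets were. Of the 25, 11 were higher and 14 lower with a median difference of -0.067, against 10476 higher and 8091 lower with a median of 0.022 over all probe sets. These counts describe genes that vary together over the mice and carry no test.

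**Figure D1:**
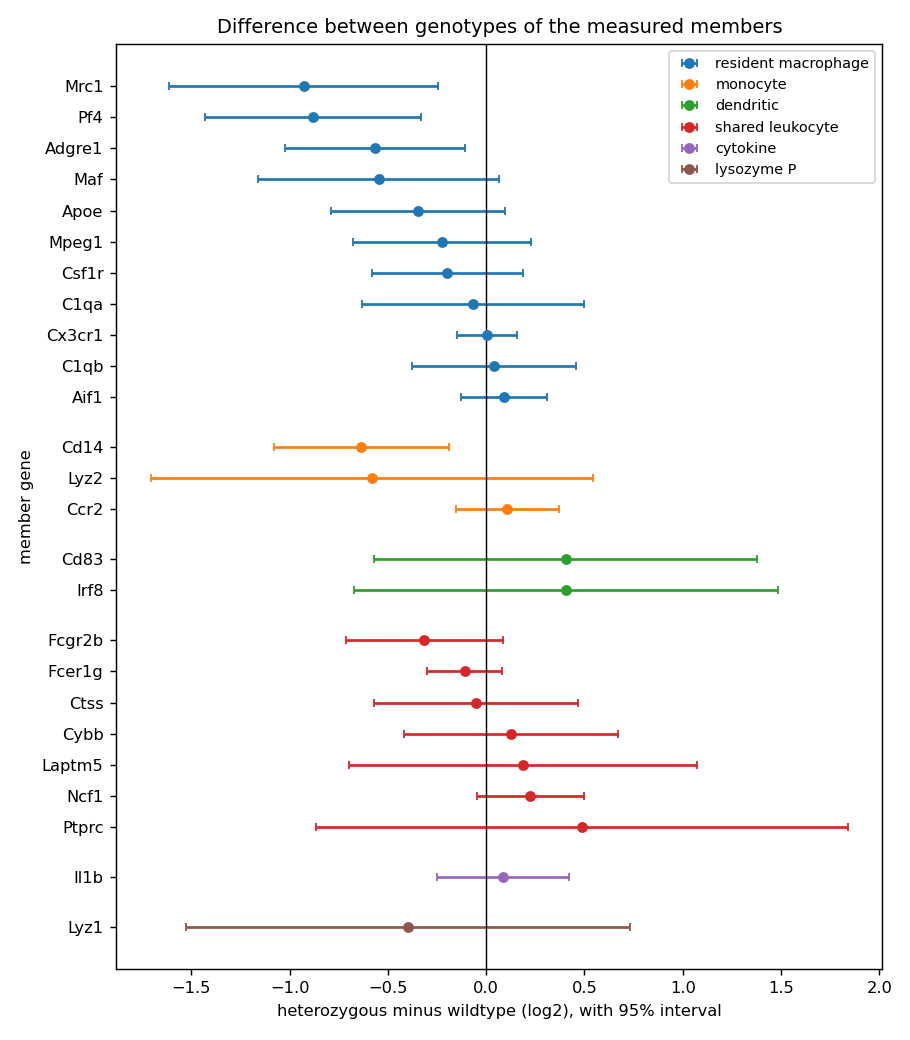
Difference between genotypes, heterozygous minus wildtype on the log2 scale, for the 25 measured members by role. Points are limma estimates and bars 95% intervals. The intervals of Mrc1, Pf4, Adgre1 and Cd14 lie below 0 and those of the other 21 members include it.

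Among resident macrophage genes, 11 of 16 were measured, with 3 higher and 8 lower and a median difference of -0.23. The 3 higher were Cx3cr1 and Aif1, whose narrow values may not measure the transcript, and C1qb, whose probe sets went different ways. Pf4 encodes the chemokine CXCL4, made by megakaryocytes and by resident macrophages. It read 5.37, 6.08, 5.86, 6.83 and 6.34 in heterozygous islets, against 6.87, 7.09, 7.41, 6.94 and 6.58 in wildtype islets. All but replicate 4 of the heterozygous mice lay below every wildtype mouse. The means were 6.10 ± 0.54 in heterozygous and 6.98 ± 0.31 in wildtype islets (SD, n = 5 each), a difference of -0.88 (SE 0.25, 0.543-fold). Its p was 0.0159 in a two-sided exact permutation test, unadjusted, and limma gave an adjusted p = 0.9999 over all probe sets.

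Mrc1 encodes the mannose receptor CD206, a scavenger receptor of matrix-associated macrophages. Its values were 4.78, 4.81, 3.88, 5.56 and 4.59 in heterozygous islets, against 4.99, 6.08, 6.23, 5.63 and 5.35 in wildtype islets. Again 4 heterozygous mice lay below all wildtype mice and replicate 4 lay among them. The difference was -0.93 (SE 0.31, 95% interval -1.61 to -0.24), or 0.525-fold.

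Adgre1 encodes an adhesion receptor that is the classical surface marker of mouse macrophages. It was dim, at 4.27, 4.31, 4.02, 4.94 and 4.59 in heterozygous islets, against 5.37, 4.97, 5.21, 4.40 and 5.01 in wildtype islets. The groups overlapped through heterozygous replicates 4 and 5 and wildtype replicate 4, and the difference was -0.57 (SE 0.21). Maf, a transcription factor of mature macrophages that is also made outside them, read 6.36, 7.79, 6.30, 7.02 and 6.91 in heterozygous islets, against 6.98, 7.81, 7.63, 7.09 and 7.62 in wildtype islets. Its difference was -0.55 (SE 0.28), and without heterozygous replicates 2 and 5 it was -0.86 (SE 0.24). By the same exact test p was 0.0397 for Mrc1, 0.0397 for Adgre1 and 0.151 for Maf, unadjusted, and the limma adjusted p was 0.9999 for each.

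Other resident macrophage genes differed less. Csf1r, the receptor for the growth factors CSF1 and IL-34, read 8.34, 9.10, 8.47, 9.21 and 8.80 in heterozygous islets, against 8.80, 8.93, 9.22, 8.88 and 9.08 in wildtype islets. Heterozygous replicates 1 and 3 were the lowest of the 10 mice, and the difference was -0.20 (95% interval -0.58 to 0.19). Its other 2 probe sets differed by -0.26 and 0.11 and so went different ways.

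C1qa and C1qb encode chains of the complement component C1q, which macrophages make in quantity. C1qa was at 7.07, 6.95, 6.63, 7.11 and 7.60 in heterozygous islets, against 7.21, 7.31, 7.49, 7.50 and 6.20 in wildtype islets. C1qb was at 7.63, 8.26, 8.17, 8.60 and 8.53 in heterozygous islets, against 8.14, 8.07, 8.64, 8.10 and 8.03 in wildtype islets. The groups overlapped for both, with differences of -0.067 (95% interval -0.63 to 0.50) and 0.041 (-0.38 to 0.46). The other 2 probe sets of C1qb above the filter differed by -0.13 and -0.18, so its direction is not settled.

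The third chain, C1qc, did not pass the filter and lay between 2.43 and 4.24. Apoe, a lipid carrier made by macrophages and other cells, averaged 10.39 ± 0.44 in heterozygous and 10.73 ± 0.22 in wildtype islets (difference -0.35, SE 0.20). For Apoe 4 heterozygous mice lay below all wildtype mice, but replicates 4 and 5, at 10.52 and 10.53, did so only narrowly. The lowest wildtype mouse was at 10.54. Mpeg1, which encodes the pore-forming protein perforin-2, differed by -0.23 (SE 0.205). Without heterozygous replicates 2 and 5, Apoe differed by -0.57 and Mpeg1 by -0.48. Without replicate 3 Apoe differed by -0.18 and Mpeg1 by -0.12, and without replicate 1 Mpeg1 differed by -0.091.

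Other members of this role gave little signal. The fractalkine receptor gene Cx3cr1 lay between 5.12 and 5.17 in all 10 mice, a span of 0.04. Aif1, which encodes the marker IBA1, lay between 4.56 and 5.03, highest in heterozygous replicate 5. Values this narrow above the filter have not been shown to measure the transcript. The haemoglobin receptor gene Cd163 lay between 2.75 and 3.99, the lipid receptor gene Trem2 between 3.58 and 4.30, and the IgG receptor gene Fcgr1 between 3.37 and 3.87.

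**Figure D2:**
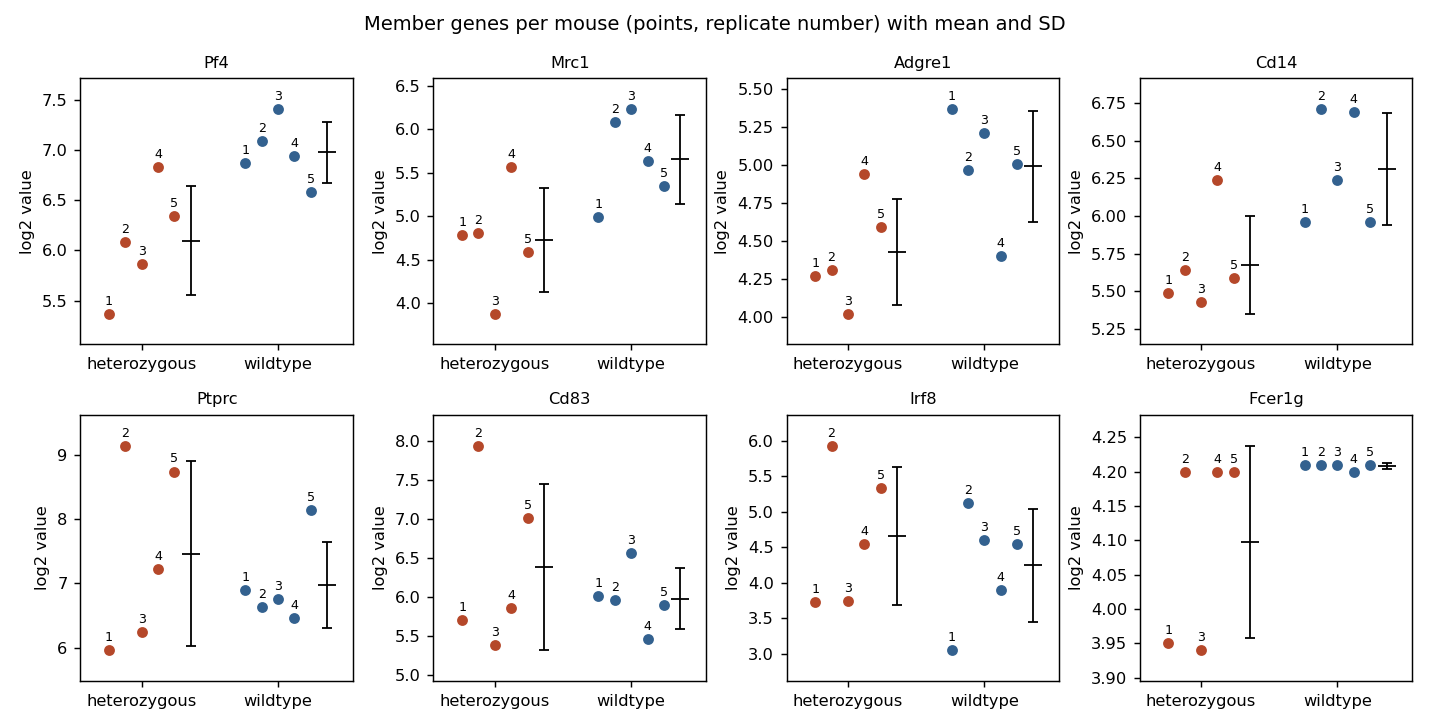
Log2 values per mouse of 8 members, heterozygous left and wildtype right. Points carry the replicate number and bars show mean and SD. Pf4, Mrc1, Adgre1 and Cd14 lie lower in most heterozygous mice, replicate 4 being the highest of them, whereas Ptprc, Cd83 and Irf8 are highest in heterozygous replicates 2 and 5.

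Among monocyte genes, Cd14, the co-receptor for bacterial lipopolysaccharide, read 5.49, 5.64, 5.43, 6.24 and 5.59 in heterozygous islets, against 5.96, 6.71, 6.24, 6.69 and 5.96 in wildtype islets. Heterozygous replicate 4 was again the one mouse within the wildtype range. The difference was -0.64 (SE 0.20, 0.644-fold), with an exact permutation p = 0.0238, unadjusted, and a limma adjusted p = 0.9999.

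Ccr2, the receptor that brings monocytes out of the marrow, read 5.04, 5.33, 5.10, 5.50 and 5.02 in heterozygous islets, against 5.03, 5.34, 5.00, 5.01 and 5.08 in wildtype islets. It spanned 0.49 over all mice and differed by 0.11 (95% interval -0.15 to 0.37). The second Ccr2 probe set above the filter differed by -0.014 (95% interval -0.19 to 0.17), so the direction is not settled. The neutrophil genes S100a8 and S100a9, whose products together form calprotectin, did not pass the filter. S100a8 lay between 2.47 and 2.60, and S100a9 between 2.62 and 3.13, so these probe sets gave no detectable signal in either genotype. The macrophage genes Cd68, Tyrobp and Spi1 were dim as well, so this does not show that neutrophils were absent.

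Lyz2, the lysozyme of macrophages, monocytes and neutrophils, ranged widely. It read 5.80, 8.44, 6.21, 7.78 and 8.52 in heterozygous islets, against 7.83, 7.72, 8.29, 7.54 and 8.27 in wildtype islets. Heterozygous replicates 1 and 3 lay at least 1 unit below every other mouse, while replicates 2 and 5 lay above all wildtype mice. The difference was -0.58 (SE 0.51). It was -1.34 (SE 0.41) without replicates 2 and 5, -0.19 without replicate 1, -0.30 without replicate 3 and -0.071 with the mean of stromal markers as a covariate.

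Lyz1 is known in mice as the lysozyme of Paneth cells of the intestine. Its brightest probe set read 8.97, 11.43, 8.76, 10.35 and 11.29 in heterozygous islets, against 10.43, 10.33, 10.63, 10.17 and 11.21 in wildtype islets. The same 2 heterozygous mice were lowest and the same 2 highest as for Lyz2. The difference was -0.40 (SE 0.51), -1.20 without replicates 2 and 5, -0.046 without replicate 3 and -0.016 with the stromal covariate. Over the 10 mice the values of both genes correlated at Pearson r = 0.963 (permutation p = 8e-05, adjusted p = 0.00032 over 4 pairs) and Spearman rho = 0.964 (permutation p = 7e-05, adjusted p = 0.00028). Without heterozygous replicates 1 and 3, the mice farthest from the median, r was 0.923, and within genotypes it was 0.966.

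Of the 3 Lyz1 probe sets 1 departed from this. It lay between 2.55 and 2.69 in all mice, while the other 2 carry the suffix x_at, which the manufacturer gives to probe sets that may also bind other transcripts. Signal from Lyz1 and Lyz2 on those 2 probe sets cannot be told apart here, and the Lyz1 values are uncertain. Of the 11 intestinal markers with a probe set, 3 were above the filter, with Vil1 at 9.31 in heterozygous and 8.91 in wildtype islets and Olfm4 between 8.20 and 9.62 in heterozygous and between 8.05 and 9.32 in wildtype islets. Their mean lay between 7.37 and 9.07 in heterozygous and between 7.16 and 8.23 in wildtype islets, and their part in the Lyz1 values was not tested.

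**Figure D3:**
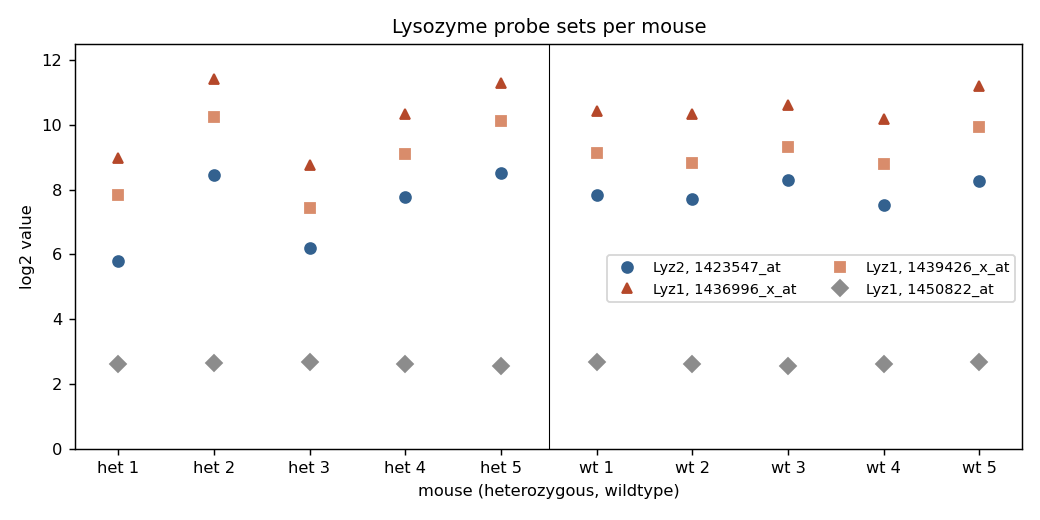
Log2 values per mouse of the Lyz2 probe set and the 3 Lyz1 probe sets, heterozygous mice left of the line and wildtype mice right. Both x_at probe sets of Lyz1 follow Lyz2 from mouse to mouse, whereas the third lies between 2.55 and 2.69 throughout.

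Of the dendritic genes, Cd83 and Irf8 were measured, and both are also made by B cells. Cd83, a surface protein of mature dendritic cells and activated B cells, read 5.71, 7.94, 5.39, 5.86 and 7.01 in heterozygous islets, against 6.01, 5.96, 6.56, 5.46 and 5.90 in wildtype islets. Irf8, a transcription factor of dendritic and B cells, read 3.73, 5.93, 3.74, 4.54 and 5.34 in heterozygous islets, against 3.05, 5.13, 4.60, 3.90 and 4.55 in wildtype islets. For both genes heterozygous replicates 2 and 5 were the highest of the 10 mice.

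The difference was 0.40 (SE 0.44) for Cd83 and 0.41 (SE 0.49) for Irf8. Without replicates 2 and 5 both turned over, to -0.33 and -0.25. Flt3, the receptor of dendritic cell precursors, lay between 2.68 and 2.90, and the costimulatory gene Cd86 between 2.61 and 3.78, so that neither passed the filter.

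The genes shared by leukocytes followed the same mice. Ptprc encodes CD45, the phosphatase on the surface of all leukocytes. It read 5.96, 9.14, 6.25, 7.23 and 8.74 in heterozygous islets, against 6.90, 6.63, 6.75, 6.46 and 8.14 in wildtype islets. The 3 highest mice were heterozygous replicates 2 and 5 and wildtype replicate 5, which were also the 3 highest for Ighm and Ms4a1. For the B cell genes Cd22 and Cd79a heterozygous replicates 2 and 5 were again highest. The third mouse was heterozygous replicate 4 for Cd22 and heterozygous replicate 1 for Cd79a. The 2 lowest for Ptprc were heterozygous replicates 1 and 3. The difference was 0.49 (SE 0.61) with all mice and -0.50 (SE 0.41) without heterozygous replicates 2 and 5. The brightest probe set of Laptm5, a lysosomal membrane protein of leukocytes, had its 3 highest values in the same mice as Ptprc, with a difference of 0.19 (SE 0.40) with all mice and -0.39 (SE 0.34) without the 2. Its second probe set above the filter did not follow these mice, being lowest in wildtype replicate 5 (7.38) and highest in wildtype replicate 1 (8.86).

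Cybb and Ncf1 encode subunits of the phagocyte NADPH oxidase, which B cells also carry. Cybb read 4.32, 5.51, 4.50, 4.74 and 5.62 in heterozygous islets, against 4.76, 5.12, 4.75, 4.71 and 4.73 in wildtype islets. Ncf1 read 5.11, 5.68, 5.04, 5.28 and 5.46 in heterozygous islets, against 5.13, 5.01, 5.08, 5.10 and 5.14 in wildtype islets. Heterozygous replicates 2 and 5 were the highest mice for both. The pair correlated at r = 0.750 over the 10 mice (permutation p = 0.0191, adjusted p = 0.0381) with rho = 0.418 (permutation p = 0.231, adjusted p = 0.308). The relation rested on these 2 mice, since r was -0.17 without them.

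The differences were 0.13 (SE 0.25) for Cybb and 0.22 (SE 0.12) for Ncf1, and -0.29 and 0.052 without heterozygous replicates 2 and 5. Ctss, the cathepsin that trims the MHC class II invariant chain, averaged 10.78 ± 0.55 in heterozygous and 10.83 ± 0.21 in wildtype islets (difference -0.050, 95% interval -0.57 to 0.47). Its highest values were in heterozygous replicates 2 and 5, and without them the difference was -0.37, while without replicate 3 it was 0.15. Of 10 partner pairs listed, 4 could be measured. C1qa with C1qb (r = 0.371, permutation p = 0.295, adjusted p = 0.295, rho = 0.345, permutation p = 0.332, adjusted p = 0.332) and Csf1r with Adgre1 (r = 0.591, permutation p = 0.0746, adjusted p = 0.0995, rho = 0.515, permutation p = 0.134, adjusted p = 0.267) did not pass. Without the 2 mice farthest from the median these were 0.381 and 0.121.

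The Fc receptor genes read differently. Fcgr2b, the inhibitory IgG receptor of macrophages and B cells, was at 6.05, 6.07, 5.93, 6.03 and 5.50 in heterozygous islets, against 6.15, 6.81, 6.08, 6.27 and 5.84 in wildtype islets (difference -0.31, SE 0.18). Its other 2 probe sets above the filter differed by -0.14 and -0.076. Fcgr3, an activating IgG receptor gene, lay between 3.87 and 4.54 and did not pass.

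Fcer1g, the signalling chain shared by Fc receptors, was the only one of the 25 members whose genotypes did not overlap (4%), where 0.700% of all probe sets did not. Its values were 3.95, 4.20, 3.94, 4.20 and 4.20 in heterozygous islets, against 4.20 to 4.21 in wildtype islets. The groups were parted by 0.0015, and all values lay within 0.27 of one another near the filter value. The exact permutation p was 0.00794, the smallest that the assignments of 10 mice can give, and the limma p was 0.231 for a difference of -0.11 (SE 0.087).

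Cytokine genes showed little. Il1b, which encodes interleukin-1 beta, read 6.07, 6.06, 6.65, 6.09 and 6.09 in heterozygous islets, against 5.86, 6.31, 6.24, 5.83 and 6.29 in wildtype islets (difference 0.085, 95% interval -0.25 to 0.42). Heterozygous replicate 3 was the highest mouse. The chemokine genes Ccl3 and Ccl4 did not pass, lying between 2.47 and 3.73 and between 2.12 and 2.33.

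**Figure D4:**
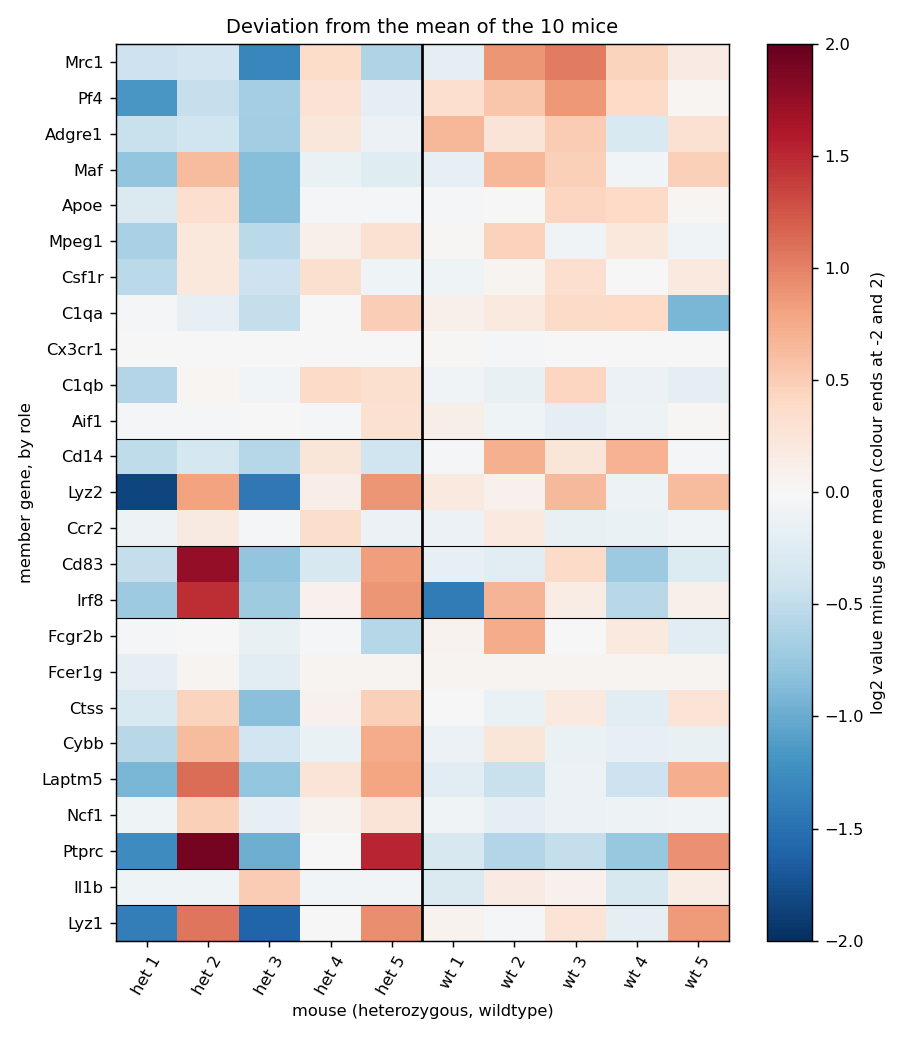
Deviation of each mouse from the mean of the 10 mice, on the log2 scale, for the 25 measured members by role. Heterozygous mice stand left of the line and wildtype mice right. Heterozygous replicates 1 and 3 are low across most roles, and replicates 2 and 5 are high in Ptprc, Cd83, Irf8, Lyz1 and Lyz2.

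Scores per mouse, the mean log2 value over the measured genes of a role, set the roles side by side. The resident macrophage score was 6.38, 6.83, 6.30, 6.96 and 6.84 in heterozygous islets, against 6.89, 7.08, 7.21, 6.94 and 6.83 in wildtype islets. Its difference was -0.33, with 6.66 ± 0.30 in heterozygous and 6.99 ± 0.15 in wildtype islets (SD, n = 5). Heterozygous replicates 1 and 3 lay below every wildtype mouse, and the other 3 lay within or at the edge of the wildtype range. The score includes Cx3cr1 and Aif1, whose narrow values have not been shown to measure the transcript.

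The monocyte score was 5.44, 6.47, 5.58, 6.50 and 6.38 in heterozygous islets, against 6.27, 6.59, 6.51, 6.42 and 6.43 in wildtype islets (difference -0.37, or -0.21 without heterozygous replicate 1 and -0.25 without replicate 3). The dendritic score, of 2 genes, was 4.72, 6.94, 4.56, 5.20 and 6.17 in heterozygous islets, against 4.53, 5.54, 5.58, 4.68 and 5.23 in wildtype islets (difference 0.41). The shared leukocyte score was 6.31, 7.45, 6.29, 6.83 and 7.25 in heterozygous islets, against 6.71, 6.74, 6.71, 6.59 and 7.01 in wildtype islets (difference 0.079). Without heterozygous replicate 2 the dendritic difference was 0.051 and the shared one -0.077, and without replicate 5 the shared one was -0.028.

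The resident and monocyte scores thus differed by about the same amount. The dendritic score of 2 genes and, by less, the shared leukocyte score went the other way. Within the monocyte group Ccr2 was higher, by 0.11. The resident score minus the mean over the 5 monocyte and dendritic genes was 0.81 ± 0.44 in heterozygous and 1.08 ± 0.19 in wildtype islets, a difference of -0.27. Without heterozygous replicate 2 this difference was -0.11, and without both replicates 2 and 5 it was 0.031, that of the resident score -0.45, the monocyte score -0.60, the dendritic score -0.29 and the shared score -0.27. No test was made of a score. Of the 18 members that spanned more than 1 unit over the mice, a limit chosen after the values were seen, 9 were highest in heterozygous replicate 2 or 5 and 15 were lowest in heterozygous replicate 1 or 3.

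**Figure D5:**
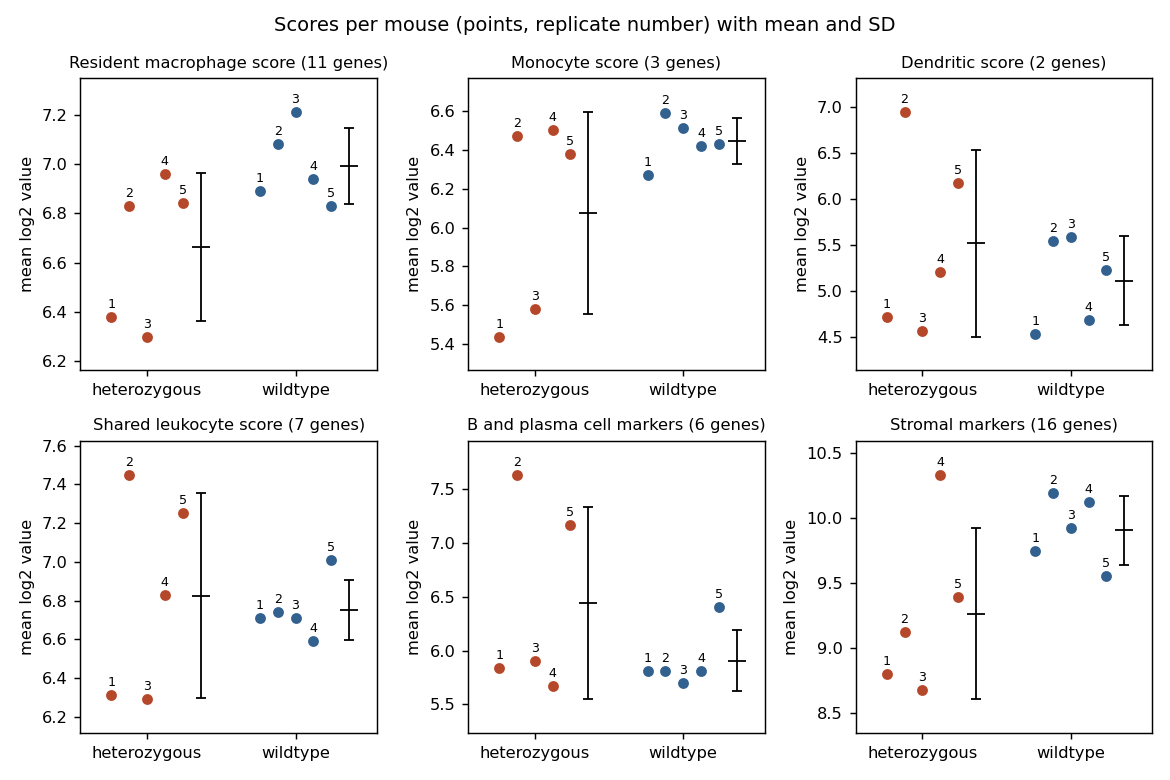
Mean log2 value per mouse of the genes of each role and of B cell and stromal markers, heterozygous left and wildtype right, with replicate numbers, mean and SD. Heterozygous replicates 1 and 3 have the lowest monocyte and shared scores, and replicates 2 and 5 the highest shared scores and B cell values.

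Markers of other cell types were set beside these scores. Of 18 B and plasma cell markers with a probe set, 6 were above the filter, and their mean lay between 5.67 and 7.63 in heterozygous and between 5.70 and 6.40 in wildtype islets. Xbp1, also a gene of secretory cells, averaged 13.41 in heterozygous and 13.25 in wildtype islets, and Cd22 averaged 5.84 in heterozygous and 4.94 in wildtype islets. The B cell markers Pax5 and Blk stayed at or below 2.31 in every mouse. Of T and NK cell markers only Thy1, also made by stromal cells, was above the filter, at 5.87 in heterozygous and 6.84 in wildtype islets.

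All 16 measured stromal markers had lower means in heterozygous islets, among them Col3a1 (12.06 in heterozygous, 13.14 in wildtype) and Dcn (11.46 and 12.10). Their average lay between 8.67 and 10.33 in heterozygous islets, against 9.55 to 10.19 in wildtype islets. Of the 16, 7 were lower at an unadjusted limma p under 0.05, where 1.52% of all probe sets were. Heterozygous replicate 4, the mouse with the highest Pf4, Mrc1, Adgre1 and Cd14 of its group, also had the highest stromal mean of all. With the stromal mean as a covariate the differences were -0.41 for Pf4, -0.40 for Mrc1, -0.34 for Adgre1 and -0.25 for Cd14. With the B cell mean as a covariate, added after the data were seen, those of Ptprc and Laptm5 became -0.33 and -0.29. Whether stroma or B cells set any of these values was not tested.

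Endothelial markers (13 of 14 measured) were lower in heterozygous islets for 12 genes and higher for 1, with a median difference of -0.33. Of the 13, 2 were lower at an unadjusted limma p under 0.05, where 1.52% of all probe sets were. The endothelial mean lay between 6.93 and 7.72 in heterozygous and between 7.41 and 7.95 in wildtype islets. Its difference was -0.33, as for the resident macrophage score, and the part of these markers in that score was not tested. Among them were Plvap, at 10.23 in heterozygous and 10.46 in wildtype islets, and Kdr, at 9.21 in both. Of 10 mast cell and basophil markers 2 were measured, Gata2 at 6.20 in heterozygous and 6.56 in wildtype islets and Kit at 5.02 and 4.82. Of 8 platelet and megakaryocyte markers with a probe set only Tubb1 was measured, between 3.09 and 6.82 in heterozygous and 2.89 and 6.24 in wildtype islets. Acinar markers had a mean of 15.90 to 16.29 in heterozygous and 16.09 to 16.39 in wildtype islets, and endocrine markers of 13.10 to 13.73 and 13.03 to 13.76.

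Other genes of the myeloid programme, 158 in 4 lists, gave 59 measured genes, of which 27 were higher and 32 lower with a median difference of -0.019, and 0 passed limma's test in either direction. At an unadjusted limma p under 0.05, 2 of the 59 were higher and 3 lower, where 2.57% and 1.52% of all probe sets were. Of 23 further macrophage genes 12 were higher and 11 lower (median 0.0012). This median is the difference of Fcna, which lay between 5.42 and 5.50 in all mice. Values so narrow have not been shown to measure the transcript, so the median does not show that these genes were unchanged. Lyve1, a hyaluronan receptor of perivascular macrophages and lymphatic vessels, read 6.43, 7.19, 7.10, 7.30 and 8.02 in heterozygous islets, against 7.83, 8.03, 9.40, 8.14 and 7.98 in wildtype islets. The difference was -1.07 (SE 0.34), and only heterozygous replicate 5 lay within the wildtype range. Abcg1, a cholesterol exporter, went the other way, averaging 9.72 ± 0.15 in heterozygous islets, against 9.38 ± 0.13 in wildtype islets (difference 0.34, SE 0.10). Of the 23, Abcg1 was the 1 gene higher at an unadjusted limma p under 0.05, and 3 were lower. Besides Lyve1 the lower genes were Cd9 (-0.45, SE 0.17) and Slco2b1 (-0.61, SE 0.27).

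Of 12 genes of CSF1 signalling and its relatives 7 were higher and 5 lower (median 0.13). Their mean was highest in heterozygous replicates 2 and 5, at 6.49 and 6.50. It lay between 5.88 and 6.16 in the other heterozygous mice and between 5.86 and 6.23 in wildtype mice. The median was not recomputed without replicates 2 and 5. The ligand gene Csf1 averaged 7.12 in both genotypes, while Il34, the other ligand of the receptor, averaged 2.02 in heterozygous and 2.01 in wildtype islets and did not pass. Ptpn6, the phosphatase SHP-1 of blood cells and epithelia, read 7.18, 7.43, 6.96, 7.31 and 7.74 in heterozygous islets, against 6.62, 6.59, 7.09, 6.89 and 6.68 in wildtype islets. All but replicate 3 of the heterozygous mice lay above every wildtype mouse (0.55, SE 0.15), with a limma adjusted p = 0.9999 as for Lyve1 and Abcg1. Runx1, a blood cell transcription factor, differed by 0.29 (SE 0.14).

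Of 12 further genes of monocytes, neutrophils and dendritic cells 3 were higher and 9 lower (median -0.16), with F13a1, a coagulation factor chain of monocytes and macrophages, at -0.54 (SE 0.33) and the nuclear receptor gene Nr4a1 at -0.35 (SE 0.23). Of 12 inflammatory genes 5 were higher and 7 lower (median -0.026), with Cyba, the small membrane subunit of the phagocyte oxidase, at -0.50 (SE 0.26) and the chemokine gene Cxcl16 at 0.25 (SE 0.18).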

How the data were processed

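The authors deposited log2 values, 1 per probe set and array, and the submitters' processing notes name GCRMA. RNA (100 ng) was amplified over 2 cycles, per the labels' protocols, which can enlarge differences between small samples. GCRMA pulls dim probe sets to a low value that depends on probe sequence, so narrow values above 4 may be background. The log2 scale was read from the values (0.654 to 17.58, array medians 3.28 to 3.40). The number of arrays limits the precision.

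Genes were named through the platform annotation, and all 39 member symbols matched RefSeq genes of GRCm38.p6. Of 45101 probe sets, 64 controls were left out and 18567 were kept (log2 above 4 on at least 5 arrays). The genotypes were compared with limma 3.58.1 (lmFit, then eBayes; R 4.3.3) and no covariates, with Benjamini-Hochberg adjustment over all probe sets kept and a threshold of 0.05. The fit was tested on simulated data. Exact permutation tests used every assignment of the mice, and correlations 100000 permutations. Python 3.11.15, Biopython 1.88 and matplotlib 3.10.9 were used for the rest.

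Values per mouse are given for up to 4 members per role with the smallest p, for members of listed partner pairs and for genes whose groups do not overlap. In the lists of other myeloid genes the 2 with the smallest p and those with an unadjusted p under 0.01 are named. Csf1, Il34, Fcna, Cd9 and Slco2b1 were added with their values known. The members and lists were chosen with earlier results of these data known.

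Alternatives were no filter, a filter at 5, quantile normalization, median centring, array weights, a trended robust prior, a block for the replicate number, lymphocyte or stromal means as covariates, a plain test, a threshold of 0.10, the mean of all kept probe sets, z scores, leaving out each array and leaving out heterozygous replicates 2 and 5.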

Additional observations from a re-analysis of the deposited data

Results flagged for a closer look

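Single mice stood apart in 10 of 58 groups of 5 examined, one genotype of one gene or score at a time, where chance alone sets about 1 in 20 apart and genes of the same cells are not independent. In heterozygous mice these were Aif1 at 5.03 and Fcgr2b at 5.50 in replicate 5 (nearest other mouse 4.74 and 5.93), Cd14 at 6.24 in replicate 4 (5.64) and Il1b at 6.65 in replicate 3 (6.09). In wildtype mice they were C1qa at 6.20 in replicate 5 (7.21), C1qb at 8.64 in replicate 3 (8.14), and Ccr2 at 5.34 and Cybb at 5.12 in replicate 2 (5.08 and 4.76). Wildtype replicate 5 was also apart in Ptprc at 8.14 (6.90) and Laptm5 at 9.91 (9.07).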

How the results depend on the processing

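No alternative called any probe set, member or other myeloid gene at 0.05, and the main fit called none at 0.10. With the replicate number as a block 0 probe sets were called. Mice of the same number did not vary together (correlations of deviations from -0.284 to 0.108, 1 of 5 best with its own number). The labels name no pairing, and such correlations cannot exclude one of small effect. Of 545 recomputed member differences 114 could not change by construction. Of the other 431, 391 kept their direction and 40 changed it. Pf4, Mrc1, Adgre1, Cd14, Maf, Apoe, Lyz1, Lyz2, Fcer1g and Fcgr2b stayed lower, and Aif1, Ccr2 and Ncf1 stayed higher, in every alternative that gave them a value, but not at the same size. With the stromal mean Lyz1 was at -0.0161, Lyz2 at -0.0711, Fcer1g at -0.0276 and Apoe at -0.145, and without heterozygous replicate 3 Lyz1 was at -0.0458. The causes of the changes were not tested.

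Without heterozygous replicates 2 and 5 the direction changed for C1qb (-0.0633), Cd83 (-0.325), Cybb (-0.293), Irf8 (-0.246), Laptm5 (-0.385) and Ptprc (-0.497). With the B cell mean as a covariate it changed for Cd83 (-0.137), Cybb (-0.164), Irf8 (-0.0973), Laptm5 (-0.294) and Ptprc (-0.333). With the lymphocyte mean it changed for C1qb (-0.00137), Cd83 (-0.00621), Cybb (-0.0966), Laptm5 (-0.177) and Ptprc (-0.12). With the stromal mean it changed for C1qa (0.203), Csf1r (0.0449), Ctss (0.12), Cx3cr1 (-0.00143), Il1b (-0.0256) and Mpeg1 (0.0673). Array weights turned C1qb (-0.0758) and Cybb (-0.0167), the mean of probe sets turned C1qb (-0.0884), and median centring and quantile normalization turned Cx3cr1 (-0.0123 and -0.0222). Leaving out 1 mouse gave C1qa -0.302 to 0.0438, C1qb -0.0494 to 0.193, Ctss -0.175 to 0.15, Cybb -0.0455 to 0.281, Il1b -0.0299 to 0.135 and Laptm5 -0.0675 to 0.44. Without heterozygous replicate 2, Ptprc differed by 0.0678, Cd83 by 0.0133 and Irf8 by 0.088. The resident score difference lay between -0.406 and -0.239 when 1 mouse was left out, and at -0.289 with no filter.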
